A study of Mus musculus with 38 samples.

Results

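Ache, Dab1, Prom1, Mal2, Adh1 and Ddit4l are 6 mouse genes whose RNA rose in cortical collecting ducts under the vasopressin analog dDAVP and that have a called gain of chromatin accessibility within 50 kb of the gene body. They were chosen by name for these measured values, so their RNA under dDAVP and the peaks around them are described here without a test. All 6 were present in both RNA tables, as 6 of 5035 genes in the dDAVP table and 6 of 55416 rows in the β-catenin table. Every ATAC-seq peak within 50 kb of a gene body was taken, gained or not, which gave 309 of the 270806 deposited peaks.

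The cortical collecting duct (CCD) is where vasopressin controls how much water the kidney takes back, and it was microdissected by hand from C57BL/6 mice. Wild-type mice had received dDAVP (desmopressin, an agonist of the V2 vasopressin receptor) or saline by infusion for 5 days, giving 4 dDAVP and 4 saline RNA-seq libraries and 3 dDAVP and 3 saline ATAC-seq libraries. The title of dDAVP RNA library 4 gave the duct number 4 but the dDAVP number 3, which library 3 also carries. It was counted as a library of its own, since its values differ from those of library 3. MT mice, which carry a mutation of the protein kinase A site S552 of β-catenin, were compared with WT mice in another table of RNA levels, in 4 units each of 3 libraries. The labels gave all 24 of these libraries a dDAVP treatment and the C57BL/6 genotype, the name of their table said that no vasopressin was given, and only the titles separated MT from WT. Pooling of animals, the promoter of any transgene and whether a unit was 1 mouse were not stated in the labels. P-values therefore measure the spread between these samples, which may be in part technical.

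The collecting duct holds principal cells, which carry the water channel AQP2, and intercalated cells, which move acid and base. Vasopressin acts on principal cells through the V2 receptor, cyclic AMP and protein kinase A, and in this way raises both the insertion of AQP2 in the apical membrane and the transcription of its gene. The 6 genes belong to different systems. Ache encodes acetylcholinesterase, which ends cholinergic signals by splitting acetylcholine. Dab1 is the cytoplasmic adaptor of the reelin receptors, best known from the layering of neurons in the brain. Prom1 (CD133) is a cholesterol-binding glycoprotein of microvilli and other membrane protrusions. Mal2 is a small membrane proteolipid required for transcytosis toward the apical surface in human hepatic cells. Adh1 is a class I alcohol dehydrogenase that oxidises ethanol and retinol. Ddit4l (REDD2), a relative of Ddit4, restrains the growth kinase complex mTORC1.

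The start regions of these genes were compared with the peaks. RefSeq (GRCm38.p6, the same build as mm10) had promoter windows, from 250 bases before to 50 bases after a start, for 5 of the 6 genes, all but Mal2. These were 7 windows, with a pair each for Dab1 and Prom1. Of these, 3 windows are shown because each lay under a strong peak that did not gain signal and held a match to a searched motif. Capitals mark a CRE half-site in Dab1, an AP-1 site followed by a CCAAT box in Prom1 and a TATA box in Ddit4l. All are written 5′ to 3′ on the strand of the gene.
Dab1, inner start, chr4:104367288-104367587, plus strand: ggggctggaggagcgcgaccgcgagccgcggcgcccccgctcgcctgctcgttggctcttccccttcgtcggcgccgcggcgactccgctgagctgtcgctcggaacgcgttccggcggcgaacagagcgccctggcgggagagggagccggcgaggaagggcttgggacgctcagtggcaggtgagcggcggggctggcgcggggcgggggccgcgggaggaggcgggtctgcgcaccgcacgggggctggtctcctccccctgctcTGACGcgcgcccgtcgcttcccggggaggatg
Prom1, outer start, chr5:44101687-44101986, minus strand: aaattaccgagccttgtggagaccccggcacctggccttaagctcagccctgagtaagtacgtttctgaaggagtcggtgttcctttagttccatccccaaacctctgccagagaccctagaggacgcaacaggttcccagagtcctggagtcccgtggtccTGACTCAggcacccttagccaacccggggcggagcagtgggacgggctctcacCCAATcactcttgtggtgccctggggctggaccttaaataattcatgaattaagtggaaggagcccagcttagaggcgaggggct
Ddit4l, chr3:137623422-137623721, plus strand: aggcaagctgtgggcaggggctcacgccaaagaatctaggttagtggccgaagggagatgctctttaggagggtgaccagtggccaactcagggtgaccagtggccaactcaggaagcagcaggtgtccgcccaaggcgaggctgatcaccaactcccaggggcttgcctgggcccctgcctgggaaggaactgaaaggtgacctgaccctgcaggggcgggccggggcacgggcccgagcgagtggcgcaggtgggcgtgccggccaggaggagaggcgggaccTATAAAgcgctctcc

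The motifs searched on both strands were the full CRE (TGACGTCA), its half-site (TGACG, which the full site contains), AP-1 (TGANTCA), the grainyhead site (AACCNGGTT), the CCAAT box, the TATA box (spelled TATAAA) and the nuclear receptor site NBRE (AAAGGTCA). The half-site was found in 1 of the 7 windows, at position 19 of the Dab1 inner start counted from the first transcribed base, and in 20.8% of all 32851 RefSeq windows. AP-1 was found in both Prom1 windows, 88 bases before the outer start and 189 bases before the inner one, and in 7.81% of all windows. CCAAT stood 35 bases before the outer Prom1 start and, on the opposite strand, 178 bases before the outer Dab1 start, and in 37.4% of all windows. TATAAA lay at position 36 of Ddit4l, after the annotated start, and in 13.6% of all windows. The full CRE, the grainyhead site and the NBRE were in none of the 7 windows, and in 1.79%, 0.271% and 1.51% of all windows. The Ache and Adh1 windows held none of the 7 motifs. They differed in base composition, with 74.0% G and C in Ache and 45.3% in Adh1, against a median of 52.7% over all windows.

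Aqp2, the principal cell water channel, was at 51774 to 72251 TPM (transcript levels scaled to a fixed total per library) in the dDAVP libraries and at 18074 to 21874 TPM in the saline libraries. The summed level of 8 principal cell markers, Aqp2 among them, was 68880 to 92290 TPM with dDAVP and 31040 to 34500 TPM with saline. Aqp2 alone averaged 60870 TPM with dDAVP and 20170 TPM with saline, most of each sum. By log2 fold, 6 of the 8 markers lay above 0 and 2, Scnn1b and Hsd11b2, below. Scnn1b averaged 485.4 TPM with dDAVP and 686.2 TPM with saline. Scnn1g was at 580.2 and 586.5 TPM and Hsd11b2 at 2280 and 2244 TPM, in the same order. For Scnn1g and Hsd11b2 the mean TPM and the log2 fold differed in direction, with folds of 1.015 and 0.9986. The summed level of 8 intercalated cell markers was 3406 to 4507 TPM with dDAVP and 5252 to 6692 TPM with saline. In whole ducts, a change in the number of cells of a type and a change in RNA per cell cannot be told apart. Transcripts of other tubule segments varied between libraries. The 5 listed of 11 proximal tubule markers summed to 1322 to 12200 TPM with dDAVP and 572.3 to 12990 TPM with saline. The 1 listed of 4 thick limb markers, Umod, lay between 20.95 and 5253 TPM with dDAVP, with the highest in dDAVP library 1, and between 84.13 and 824.9 TPM with saline. None of the distal convoluted tubule and podocyte markers was listed in the dDAVP table, which holds only genes above 10 TPM in every library. The part of these markers in the results below was not tested. Saline libraries 3 and 4 had the lowest median correlations with the other libraries, 0.863 and 0.839.

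All 6 genes were higher in each of the 4 dDAVP libraries than in any saline library. In the whole dDAVP table, 0.556% of genes were called higher and 0.139% lower by limma at an adjusted p of 0.05, and 3.56% were higher with groups that did not overlap. Since the genes were chosen from this contrast, nothing is read from their 6 of 6. The log2 fold changes below are on the log2(TPM + 1) scale, with the standard error from limma.

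Ache was at 239.6, 303.9, 301.8 and 240.0 TPM in dDAVP libraries 1 to 4, against 62.92, 47.96, 74.66 and 124.8 TPM in saline libraries 1 to 4. The lowest dDAVP library stood well above the highest saline library, number 4. The mean was 271.3 ± 36.4 TPM with dDAVP and 77.6 ± 33.3 TPM with saline (SD, n = 4 each), a 3.66-fold difference (log2 1.87, SE 0.27).

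Dab1, the reelin adaptor, had the largest fold of the 6. It was at 111.6, 105.7, 130.0 and 96.54 TPM with dDAVP, against 25.25, 25.57, 13.14 and 56.25 TPM with saline. The dDAVP libraries lay close together, while the saline libraries spread from number 3, the lowest, to number 4, the highest. Its means were 111.0 ± 14.1 TPM with dDAVP and 30.1 ± 18.4 TPM with saline (SD, n = 4 each), or 4.06-fold (log2 2.02, SE 0.37).

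Ddit4l, the mTORC1 restrainer, was the least abundant of the 6 and differed 3.47-fold (log2 1.80, SE 0.33). It was at 70.82, 75.39, 57.31 and 60.63 TPM with dDAVP, against 16.15, 34.97, 11.70 and 16.35 TPM with saline. Here saline library 2, not 4, was the highest of its group. The means were 66.0 ± 8.48 TPM with dDAVP and 19.8 ± 10.3 TPM with saline (SD, n = 4 each).

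Prom1, the protrusion glycoprotein, was at 270.0, 290.4, 220.4 and 151.3 TPM with dDAVP, against 61.28, 67.50, 97.33 and 104.8 TPM with saline. The lowest dDAVP library, number 4, approached the saline range more nearly than in Ache. The means were 233.0 ± 61.9 TPM with dDAVP and 82.7 ± 21.6 TPM with saline (SD, n = 4 each), or 2.78-fold (log2 1.48, SE 0.26).

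Mal2, the transcytosis proteolipid, was at 1083, 1106, 788.2 and 735.3 TPM with dDAVP, against 377.2, 381.5, 346.3 and 546.6 TPM with saline. In both Mal2 and Prom1, dDAVP libraries 1 and 2 lay above dDAVP libraries 3 and 4. The means were 928.0 ± 193 TPM with dDAVP and 412.9 ± 90.5 TPM with saline (SD, n = 4 each), or 2.24-fold (log2 1.17, SE 0.19).

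Adh1 was the most abundant of the 6 by TPM, which is a level per transcript length, and ranked 21st of the 5035 listed genes by mean TPM. It was at 4360, 4795, 5378 and 4740 TPM with dDAVP, against 2940, 2296, 2093 and 2892 TPM with saline. Its fold was the smallest of the 6, 1.90 (log2 0.93, SE 0.15), with means of 4818 ± 420 TPM with dDAVP and 2555 ± 426 TPM with saline (SD, n = 4 each). Sorted by level, the order Adh1, Mal2, Ache, Prom1, Dab1, Ddit4l held in the means of the dDAVP libraries. Ache and Prom1, next to each other in that order, overlapped in their dDAVP ranges. In the saline means Prom1 stood above Ache by less than either SD, and the rest of the order was the same.

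**Figure D1:**
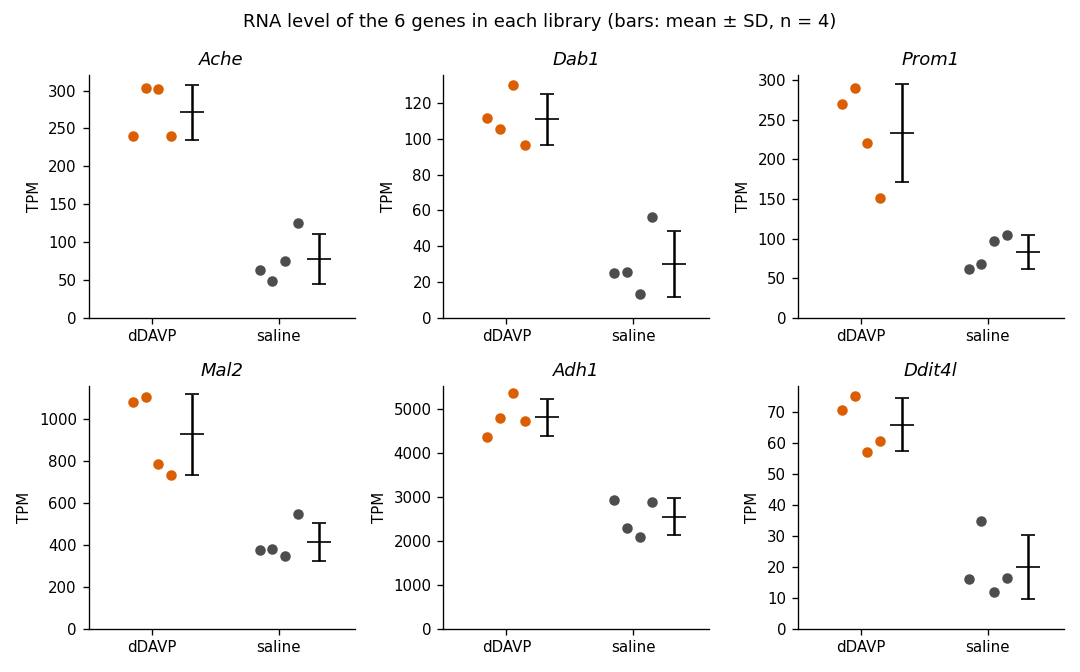
Each panel plots 1 gene, with TPM on the vertical axis from 0, the 4 dDAVP libraries at the left and the 4 saline libraries at the right in the order of their numbers, and bars for mean ± SD. In each of the 6 panels the dDAVP points lie above all saline points, from 1.90-fold in Adh1 to 4.06-fold in Dab1 on the log2(TPM + 1) scale.

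On the log2(TPM + 1) scale the SD was 0.18 with dDAVP and 0.83 with saline for Dab1, 0.18 with dDAVP and 0.64 with saline for Ddit4l, and 0.19 with dDAVP and 0.57 with saline for Ache. These are the 3 genes of largest fold. For Adh1, the gene of smallest fold, the SD was also lower with dDAVP, at 0.12 against 0.24 with saline. For Prom1 and Mal2 the spreads were close, at 0.42 and 0.30 with dDAVP and 0.38 and 0.29 with saline. Whether the spreads differed between groups was not tested.

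The chromatin around the 6 genes held 10 peaks called higher with dDAVP and 13 called lower, out of 309, at the authors' adjusted p of 0.05. Over all peaks, 0.846% were called higher and 5.98% lower. All ATAC-seq values are from the authors' deposited table, which gives the log2 mean normalised signal of the 3 dDAVP and of the 3 saline libraries with a floor at 0, so no value per library and no SD can be given. In that table the fold change lay above the difference of the signals by a median of 0.11. Of the dDAVP-table genes that could be placed on the genome, 12.1% (604 of 4980) had at least 1 gained peak within 50 kb. Of the 27 placed genes that limma called higher, 12 had one, the 6 described here and Scg5, Cdk18, Car15, Arg2, Btc and Aqp2. Since the 6 were chosen for a gained peak, nothing is read from this count beside the 12.1%. The 27 genes had a median of 33 peaks within 50 kb, against 28 over all placed genes. Among peaks with a fold above 0, the one nearest the threshold on the inside was a Dab1 intron peak with an adjusted p of 0.0493, and the nearest on the outside another Dab1 intron peak with 0.0659, both in the authors' deposited table.

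None of the 10 gained peaks lay at a start site. By the authors' annotation 6 were intergenic and 4 were in introns. Over all 2290 gained peaks 1.35% were annotated to promoters, 46.2% were intergenic and 48.4% were in introns. They were narrow, with a median width of 222 bp (94 to 1059 bp), against 312 bp for all 2290 gained peaks. In 8 of the 10 the saline log2 signal was under 2, as in 51.3% of all gained peaks. The other 2, one near Ache and one in Dab1, already had a saline log2 signal of 5 or more.

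Ache lies on chromosome 5, from 137288247 to 137294466 (mm10, plus strand, ENSMUSG00000023328). Its 3 gained peaks stood side by side in an intergenic stretch of 1919 bp, 19038 to 20668 bp before the gene. The strongest, chr5:137268151-137269209, had a log2 signal of 7.33 with dDAVP and 6.53 with saline (the authors' log2 fold 0.92). By its dDAVP signal it ranked 16th among the 2290 gained peaks of the genome, and among peaks with a mean log2 signal of 6 to 7, its own class, 0.626% were called higher and the median log2 fold was -0.42. Its smaller neighbours, chr5:137267671-137267902 and chr5:137267291-137267579, had log2 signals of 3.13 and 3.75 with dDAVP and 0.74 and 0.42 with saline.

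Of the 28 peaks of the Ache neighbourhood 9 were called lower. All 9 lay past the Ache start, as did most of the 28, and 3 of the 9 lay in the gene body. Over all peaks, the share called lower rose with the signal, and its part in the Ache losses was not tested. By mean log2 signal, 2 of 3 Ache peaks at 5 to 6 were called lower against 9.52% of all peaks, 1 of 6 at 6 to 7 against 25.8%, 5 of 6 at 7 to 8 against 39.6% and 1 of 2 at 8 to 9 against 62.3%. Besides the 3 gained peaks, 2 others had a fold above 0, both before the gene and not called, chr5:137277351-137278346 (0.24) and chr5:137280725-137280798 (0.90). The strongest peak of the neighbourhood, chr5:137293849-137294731, annotated as the promoter of the adjoining gene Ufsp1, had a log2 signal of 8.18 with dDAVP and 8.86 with saline (fold -0.57). A peak in Ache intron 1, chr5:137288872-137289505, was also called lower, at 7.28 with dDAVP and 7.95 with saline. The largest called loss, chr5:137301136-137301617, lay in an intron of Srrt, with 4.61 with dDAVP and 6.16 with saline (fold -1.43). The Ache promoter peak itself, chr5:137287836-137288411, was not called, at 6.15 with dDAVP and 6.66 with saline.

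Dab1 (ENSMUSG00000028519, chromosome 4, 103619500 to 104744844, plus strand) is 1125345 bp long, longer than 99.9% of the placed genes, and had 134 peaks, more than 99.3% of them. Its 3 gained peaks all lay in introns between the outer and the inner RefSeq start, a stretch of 748 kb with 61 peaks. The strongest of the 3, chr4:104229375-104230007, 137.8 kb before the inner start, had a log2 signal of 5.85 with dDAVP and 5.18 with saline (fold 0.79). The weaker pair, chr4:104059612-104059823 and chr4:103802837-103802961, had 3.00 and 3.03 with dDAVP, and 0.01 and 1.03 with saline. In the 377.3 kb from the inner start to the end of the gene, none of 69 peaks was called higher, beside 0.846% of all peaks. The 3 gained peaks are among those that chose the gene, so nothing is read from the difference between the stretches.

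The inner Dab1 start carried the strongest peak of the gene, chr4:104366807-104368432, under the window with the CRE half-site printed above. It was called lower, with 8.31 with dDAVP and 8.88 with saline (fold -0.45), in the class of 8 to 9 in which 62.3% of all peaks were called lower. A second peak just past it, chr4:104368480-104369065, was called lower as well, with 5.61 with dDAVP and 6.41 with saline. No peak covered the outer start window. The median log2 fold was 0.58 over the 61 peaks before the inner start and 0.23 over the 69 after it, with median mean log2 signals of 2.13 and 2.73.

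Prom1 (ENSMUSG00000029086, chromosome 5, 43993621 to 44102047, minus strand) had 49 peaks, of which 1 was called higher and none lower. The gained peak, chr5:43987803-43987917, lay 5704 bp past the end of the gene, on the side of Fgfbp1, and was weak. The authors assigned it to Fgfbp1 and not to Prom1. The log2 signal of this peak was 2.26 with dDAVP. The saline group was listed at 0, the floor, so the authors' log2 fold of 5.36 cannot be checked against the group signals. By mean signal the strongest of the 309 peaks, chr5:44100456-44102145, covers the outer Prom1 start and the AP-1 match shown above. It had 8.97 with dDAVP and 9.34 with saline (fold -0.26) and was not called.

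Mal2 (ENSMUSG00000024479, chromosome 15, 54571366 to 54602846) had 32 peaks, 1 called higher and 1 called lower. The gained peak, chr15:54612122-54612264, was intergenic, 9276 bp from the gene, with a log2 signal of 3.01 with dDAVP and 0.39 with saline. The peak called lower was the strongest of the locus, chr15:54571066-54573166, which spans the boundary of the gene and was annotated by the authors as intron 1. It had 8.73 with dDAVP and 9.43 with saline (fold -0.59). Of all peaks with a mean log2 signal of 9 or more, 86.0% were called lower, with a median fold of -0.45.

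Adh1 (ENSMUSG00000074207, chromosome 3, 138277585 to 138290698, plus strand) had 53 peaks. The 1 gained peak, chr3:138284536-138284629 in intron 5, was the narrowest of the 10 at 94 bp, with 3.07 with dDAVP and 0.41 with saline. The 1 peak called lower, chr3:138273122-138273664, lay 3921 bp before the gene, with 6.12 with dDAVP and 6.81 with saline (fold -0.57). The promoter peak, chr3:138276978-138277969, was the strongest of the locus and was not called, at 8.35 with dDAVP and 8.85 with saline.

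Ddit4l (ENSMUSG00000046818, chromosome 3, 137623672 to 137628332, plus strand) had the fewest peaks, 13, and 9.74% of placed genes had fewer. Its gained peak, chr3:137581373-137581683, lay 41989 bp before the gene, with 3.55 with dDAVP and 1.73 with saline (fold 1.90). The authors assigned this peak to Gm4861 and not to Ddit4l. None of the 13 was called lower. The strongest peak, chr3:137623286-137624425, covers the start and the TATA match shown above, with 8.20 with dDAVP and 8.48 with saline, and was not called.

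By the authors' fold, the largest losses at the other 5 genes were in weak peaks, none of them called. At Dab1 (chr4:104102657-104102730), Prom1 (chr5:43990109-43990182), Mal2 (chr15:54592161-54592234) and Adh1 (chr3:138264775-138264896) they were listed at 0 with dDAVP, with log2 signals of 2.24, 0.04, 0.84 and 1.46 with saline. At Ddit4l (chr3:137611867-137612004) the signal was 2.00 with dDAVP and 2.30 with saline.

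**Figure D2:**
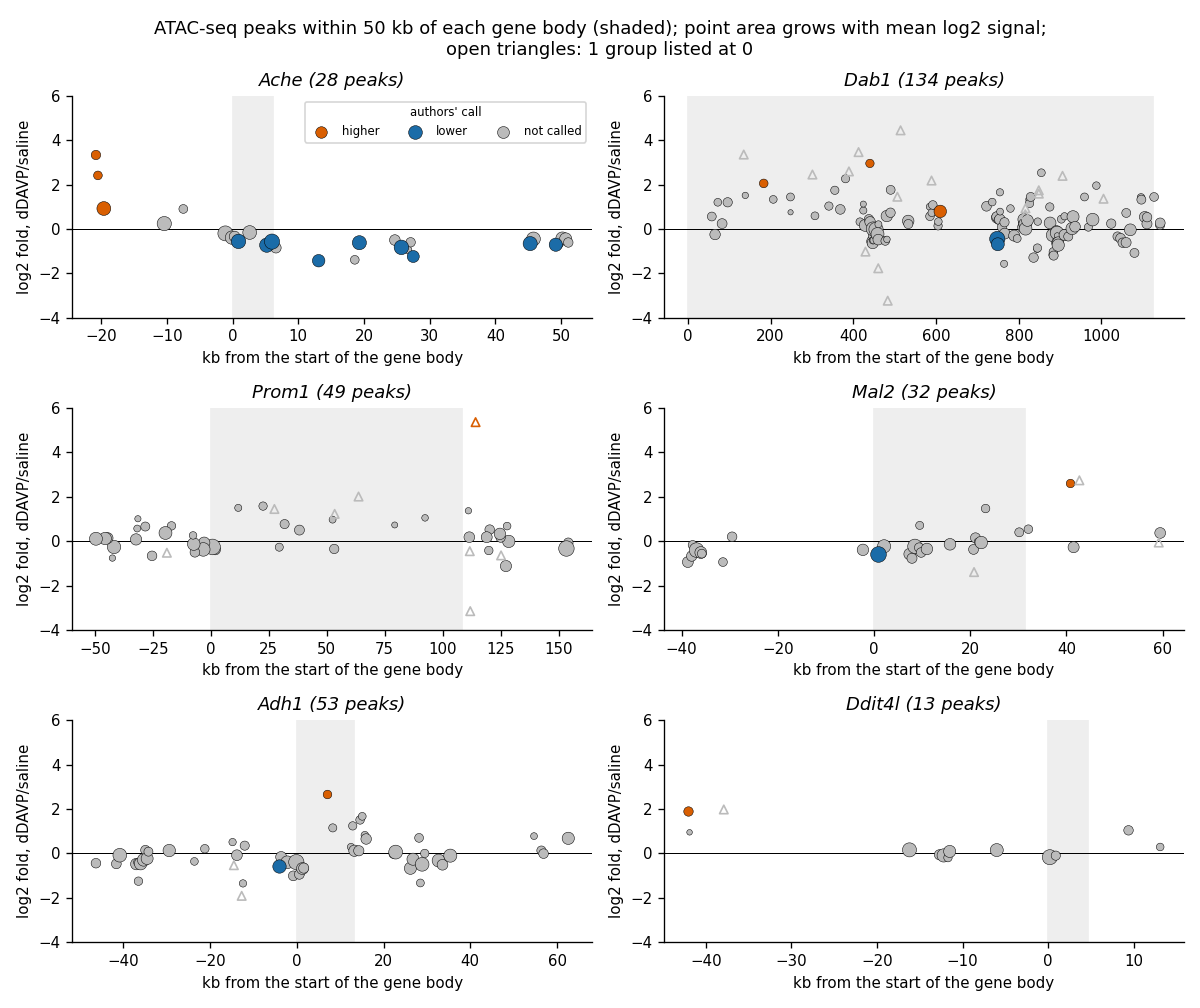
Each panel plots the peaks within 50 kb of 1 gene body (shaded), with the distance from the start of the gene body in kb on the horizontal axis and the authors' log2 fold of dDAVP over saline on the vertical axis. Colour gives the authors' call, point area the mean log2 signal, and open triangles mark peaks with 1 group listed at 0. The 3 gained peaks of Ache stand together before the gene, and all 9 peaks called lower lie past its start, where most of its 28 peaks lie.

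Most gained peaks were weak, and most strong peaks had a fold below 0. Among the 42 of the 309 peaks with a mean log2 signal of 6 or more, 7 had a fold above 0 and the median log2 fold was -0.27. Over all 31486 peaks of that strength 1433 were above 0 and the median was -0.47. The 7 include the strongest gained peak of Ache, which was among the peaks that chose the genes. Nothing is therefore read from the 7 of 42 beside the share over all peaks. Among the 166 peaks with a mean log2 signal under 3, 114 (68.7%) were above 0 with a median of 0.57, against 83383 (57.1%) and a median of 0.19 over all 146109 such peaks. The 166 include 8 gained peaks that chose the genes, and without them 106 of 158 were above 0 with a median of 0.52. Dab1 supplied 87 of the 166. The strong peaks of Ache had a median of -0.50 (14 peaks) and those of Ddit4l one of 0.03 (4 peaks). The weak peaks ran from a median of -0.60 in Ache (7 peaks) to 0.95 in Ddit4l (7 peaks).

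**Figure D3:**
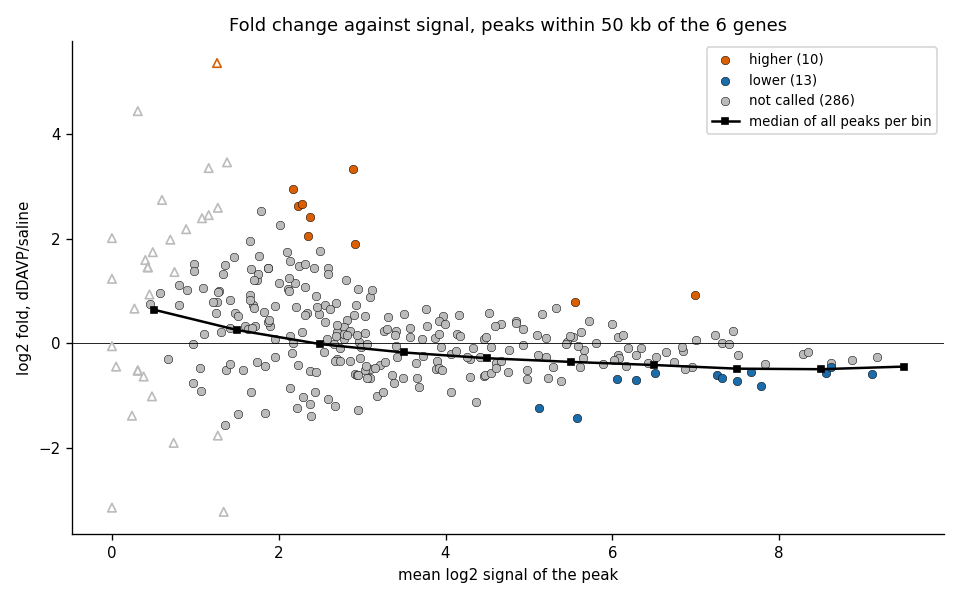
The 309 peaks are plotted with mean log2 signal on the horizontal axis and the authors' log2 fold of dDAVP over saline on the vertical axis, coloured by call, with open triangles where 1 group is listed at 0. Black squares give the median fold of all 270806 peaks in bins of 1 log2 unit, the last holding signals of 9 and more. It declines to -0.42 at 6 to 7, -0.49 at 7 to 8 and -0.50 at 8 to 9, while 8 of the 10 gained peaks lie under a mean signal of 3.

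The comparison of MT with WT ducts asked whether the phosphorylation site of β-catenin alters the genes of the duct, and it was not used to choose the 6. None of the 6 was called (limma on unit means, 0% of 15013 genes called at an adjusted p of 0.05, and 683 genes, or 4.55%, at an unadjusted p under 0.05). Proximal tubule markers summed to 16.79 to 1512 TPM in MT libraries and 21.3 to 6241 TPM in WT libraries, and their part in these values was not tested. Mal2 was the 1 gene of the 6 whose groups did not overlap, where 3.02% of all genes had groups that did not overlap in either direction. With 4 units in each group the exact permutation test over 70 assignments can give no p below 0.0286.

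Mal2 was at 584.5, 501.7, 542.5 and 536.9 TPM in MT units 1 to 4, against 429.7, 492.8, 437.8 and 434.6 TPM in WT units 1 to 4. The lowest MT unit, number 2, was just above the highest WT unit, also number 2. The means were 541.4 ± 34.0 TPM in MT and 448.7 ± 29.6 TPM in WT (SD, n = 4 units each), a 1.21-fold difference (log2 0.27, SE 0.06). It did not pass (limma adjusted p = 0.969, unadjusted p = 0.00256, two-sided exact permutation p = 0.0286), and it was higher in 4 of 4 MT units than in every WT unit. Over the alternatives the adjusted p of Mal2 lay between 0.236 and 1.

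Ddit4l was at 13.11, 18.56, 15.86 and 17.24 TPM in MT units, against 20.62, 19.71, 16.87 and 22.47 TPM in WT units. MT units 2 and 4 lay within the WT range. The log2 fold change was -0.29 (SE 0.12, limma adjusted p = 0.969, unadjusted p = 0.0414, two-sided exact permutation p = 0.0857). Ache was at 119.7, 119.6, 74.98 and 69.78 TPM in MT units, against 122.9, 156.0, 83.62 and 112.2 TPM in WT units, and the ranges overlapped (log2 -0.31, SE 0.24, limma adjusted p = 0.969).

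Dab1 was at 36.57 to 77.71 TPM in MT units and 38.00 to 72.73 TPM in WT units, with MT unit 1 and WT unit 2 far above the other units of their groups. Prom1 was at 53.60 to 69.71 TPM in MT units and 52.50 to 68.05 TPM in WT units. Adh1 was at 1897 to 2445 TPM in MT units and 1752 to 2795 TPM in WT units, again with WT unit 2 the highest. The log2 fold changes were -0.01 (SE 0.27), 0.04 (SE 0.11) and 0.06 (SE 0.15), with limma adjusted p of 0.999 each. These signs turned in some of the fits that left out 1 unit, and that of Prom1 also after median of ratios rescaling, where its log2 fold was -0.01.

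**Figure D4:**
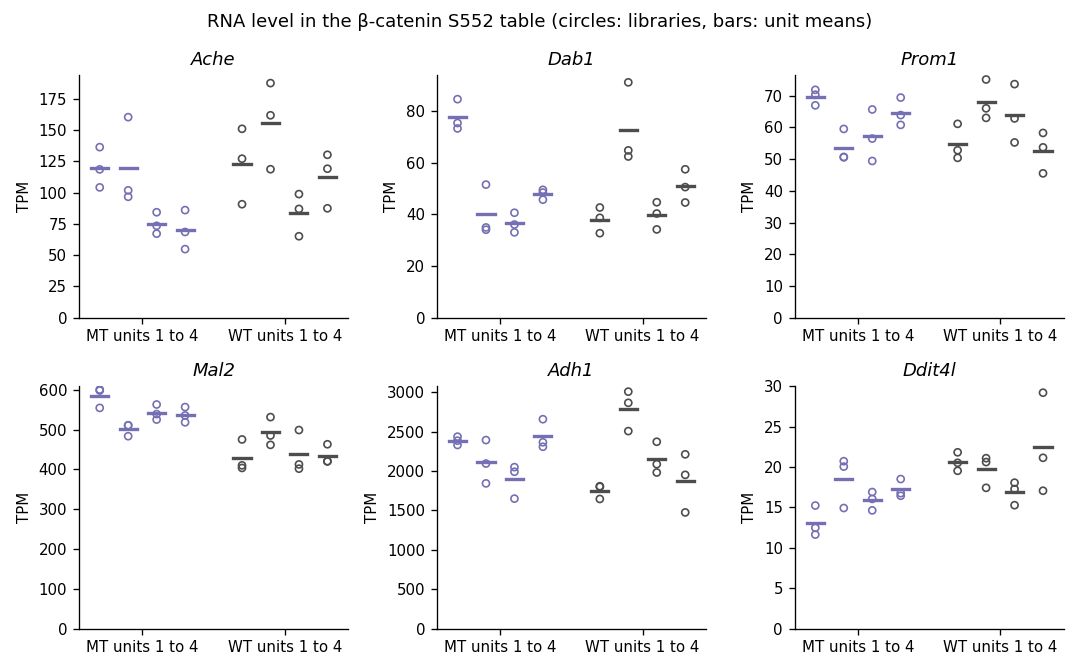
Each panel plots 1 gene in the β-catenin table, with TPM on the vertical axis from 0, MT units 1 to 4 at the left and WT units 1 to 4 at the right, open circles for the 3 libraries of a unit and bars for the unit mean. In Mal2 the 4 MT bars, from 501.7 to 584.5 TPM, lie above the 4 WT bars, and in the other 5 genes the bars of the groups overlap.

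The 6 genes differed in how much of their spread lay between units. For Dab1 the SD on the log2(TPM + 1) scale was 0.45 between units of a group and 0.20 between the 3 libraries of a unit. For Ache it was 0.39 between units and 0.31 between libraries. For Mal2, the least variable, it was 0.09 between units and 0.10 between libraries.

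The genes next to the 6 gave no call. RefSeq placed 22 other genes within 50 kb of a member, 8 at Ache, 5 at Dab1, 4 at Prom1, 5 at Adh1 and none at Mal2 and Ddit4l. Of these 3 were listed in the dDAVP table, all at Ache. Ufsp1, a protease that matures the ubiquitin-like protein UFM1, begins 203 bp past the end of Ache. It was at 93.11, 101.6, 108.8 and 54.84 TPM with dDAVP, against 41.65, 29.17, 29.40 and 104.3 TPM with saline. Saline library 4 stood within the dDAVP range, so the groups overlapped. The log2 fold of Ufsp1 was 0.96 (SE 0.41, limma adjusted p = 0.413), and 1.37 at an adjusted p of 0.0703 without saline library 4. Whether reads of the adjoining genes could have been assigned to each other was not tested.

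Srrt, an RNA-processing factor on the far side of Ufsp1, averaged 24.0 TPM with dDAVP and 35.3 TPM with saline (log2 -0.48, SE 0.40, limma adjusted p = 0.698). Trip6, an adaptor of cell adhesions, averaged 67.3 TPM with dDAVP and 74.3 TPM with saline (log2 -0.15, SE 0.35, limma adjusted p = 0.908), and its sign turned without saline library 3 and without dDAVP library 4. In MT and WT ducts Ufsp1, Srrt and Trip6 had log2 folds of -0.12, -0.22 and 0.08, none called, and Slc12a9, a cation-chloride cotransporter family member past Trip6, averaged 17.4 TPM in MT and 18.2 TPM in WT. The protein-coding neighbours C8b, Fgfbp1 and Adh7 were under 1 TPM in the β-catenin table. C8b past Dab1 averaged 0.0792 TPM in MT and 0.0925 TPM in WT, Fgfbp1 past Prom1 0.74 TPM in MT and 0.906 TPM in WT, and Adh7 beside Adh1 0.468 TPM in MT and 0.476 TPM in WT. Adh6a, a further alcohol dehydrogenase beside Adh1, averaged 6.58 TPM in MT and 7.54 TPM in WT (log2 -0.12, SE 0.23, limma adjusted p = 0.999).

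Of the partners of the 6 genes in their pathways, 1 was called under dDAVP. In 6 lists of such partners, drawn up with earlier results of these data known and counted without the 6 genes, 1 of the 69 genes listed in the table was called higher (1.45%) and none lower, beside 0.556% higher and 0.139% lower over all genes. The median log2 fold over all listed genes was -0.06. Of 31 cholinergic genes (receptors, choline transporters, synthesis and 1 Ly6 gene, Ly6e) 5 were listed, with a median of 0.50, and Ly6e was called. Since the list was drawn up with earlier results known, nothing is read from this call, the median or the 1.45%. Ly6e belongs to the Ly6 family of membrane-anchored proteins, some of which modulate nicotinic receptors. It averaged 6571 TPM with dDAVP and 3018 TPM with saline (log2 1.16, SE 0.20, limma adjusted p = 0.0238), and it was higher in 4 of 4 dDAVP libraries than in every saline library. Leaving out any 1 library other than saline library 4 removed this call (7 of 8 fits), with adjusted p up to 0.113, as did a replicate block (limma adjusted p = 0.112). Chrnb1, the β1 subunit of the muscle nicotinic receptor, was at 37.88 to 51.41 TPM with dDAVP and 14.32 to 27.75 TPM with saline and did not pass (log2 1.20, SE 0.27, limma adjusted p = 0.086).

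In the reelin list 11 of 26 genes were listed and none was called. The median log2 fold was 0.04, and the smallest p belonged to Dab2, an endocytic adaptor related to Dab1, which averaged 154.3 TPM with dDAVP and 268.0 TPM with saline (log2 -0.81, SE 0.20, limma adjusted p = 0.129). Aplp2, a relative of the amyloid precursor protein, had 0.52 (adjusted p = 0.263) and Crk, an adaptor of Dab1 signalling, -0.62 (adjusted p = 0.472). In the prominin list 8 of 18 were listed, with a median of -0.11 and no call. Hdac6, a deacetylase that binds Prom1 in human cells, had -0.82 (adjusted p = 0.382), Cd9, a tetraspanin, -0.20 (adjusted p = 0.725), and Slc9a3r1, a scaffold of microvilli, -0.19 (adjusted p = 0.734).

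In the list of MAL family and apical transport genes 19 of 29 were listed, with a median of 0.16 and no call. Cav1, the caveolar coat protein, averaged 282.1 TPM with dDAVP and 487.0 TPM with saline (log2 -0.78, SE 0.17, limma adjusted p = 0.0758). Cmtm7, of the same MARVEL-domain class as Mal2, averaged 21.9 TPM with dDAVP and 54.0 TPM with saline (log2 -1.23, SE 0.32, limma adjusted p = 0.147), and Plp2 had 0.84 (adjusted p = 0.211). In the retinoid and alcohol list 10 of 35 were listed, with a median of -0.14 and no call. Aldh2, the mitochondrial enzyme that clears the aldehyde formed by alcohol dehydrogenases, had -0.63 (adjusted p = 0.233), Adh5 -0.40 (adjusted p = 0.413) and Aldh1a1 0.71 (adjusted p = 0.559). In the mTORC1 list 16 of 27 were listed, with a median of -0.25 and no call. Its smallest p belonged to Eif4ebp1, a translation repressor that mTORC1 phosphorylates (log2 0.42, adjusted p = 0.481), Eif4ebp2 (-1.02, adjusted p = 0.527) and Tsc2, an upstream inhibitor of the complex (-0.78, adjusted p = 0.529).

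In MT against WT none of the same lists held a called gene. Their medians lay between -0.01 and 0.04 log2, beside 0.01 over all genes tested. The smallest unadjusted p in each list belonged to Chrnb4, a nicotinic receptor subunit (log2 0.41), App, the amyloid precursor protein (0.10), Prom2, the paralog of Prom1 (0.31), Cdc42, a GTPase of cell polarity (0.16), Aldh1a7, an aldehyde dehydrogenase (0.36), and Sesn2, a sensor upstream of mTORC1 (-0.22). The limma adjusted p was 0.969 for each of these 6.

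Over the 24 MT and WT libraries, which come from 8 units, the pattern of each member was compared with 10520 genes at a mean of 5 TPM or more. The correlations describe these libraries, which share units and sequencing totals, and carry no p. The gene most like Ache was its neighbour Ufsp1 (Pearson r 0.94, Spearman rho 0.95, and r 0.94 without the 2 units of most extreme Ufsp1), followed by Efna4 (0.89) and Spns2 (0.88). The gene most like Dab1 was Aqp2 (Pearson r 0.90, Spearman rho 0.87), followed by Chrnb1 (0.89) and Bok (0.88). Without MT unit 1 and WT unit 2, which were highest in Aqp2, r of Dab1 with Aqp2 was 0.71 over the 18 libraries left.

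**Figure D5:**
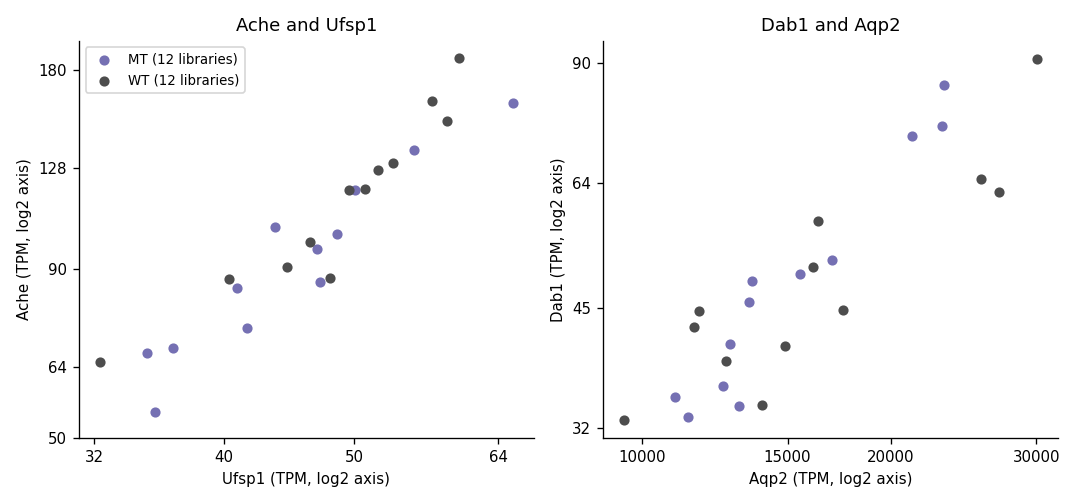
The 24 libraries are plotted by Ufsp1 and Ache at the left and by Aqp2 and Dab1 at the right, in TPM on log2 axes, MT in purple and WT in grey. Libraries high in Ufsp1 are high in Ache (r = 0.94), and the 6 libraries highest in Dab1 are those of MT unit 1 and WT unit 2.

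The other members had other nearest genes. Adh1 was most like Csrp2 (0.90), a LIM-domain protein, Klhdc8a (0.90) and Slc48a1 (0.88). Mal2 was most like Arhgap24 (0.88), the non-coding Gt(ROSA)26Sor (0.86) and Arl1 (0.86). Prom1 was most like Tspyl4 (0.81), Ttc30b (0.81) and Fbxo4 (0.79), and Ddit4l was most like Rita1 (0.69), Ubac1 (0.69) and Sec11a (0.67), the lowest of the 6. Of these 18 genes 15 were listed in the dDAVP table, and Aqp2 was called there (log2 1.59, SE 0.18, limma adjusted p = 0.0028). Aqp2 had r of 0.81 with Adh1, 0.68 with Prom1, 0.59 with Ache, 0.30 with Mal2 and -0.17 with Ddit4l over the same libraries.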

How the data were processed

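RNA-seq and ATAC-seq of microdissected mouse ducts were used as deposited. Both RNA tables held TPM computed by the authors, with STAR and RSEM named in the submitters' processing notes (no versions); the dDAVP table listed only genes above 10 TPM in every library, per the file headers, and the authors' log2 fold and DESeq p-value columns are not reported here. TPM keeps no depth, so the depth of the libraries is unknown. The ATAC-seq table held, for mm10 peaks, the authors' deposited log2 group signals, log2 fold and p-value with adjustment; cutadapt 3.4, Bowtie2, MACS2 and DiffBind were named in the notes, with settings not given in the sources used here.

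The 6 genes and the gene lists were chosen with earlier results of these data known. RNA was fitted with limma 3.58.1 (R 4.3.3, trend) on log2(TPM + 1) (genes averaging at least 1 TPM), with two-sided p adjusted by Benjamini-Hochberg, threshold 0.05. MT and WT units were means of 3 libraries. Replicate numbers paired the dDAVP and saline libraries only in part, and the main fit left them out. By correlation of deviations, libraries of the same number matched best for numbers 1 and 2 (0.19 and 0.23) but not for 3 and 4 (0.087 and -0.149). Peaks were assigned to RefSeq gene bodies (GRCm38.p6), on which 99.1% of dDAVP-table symbols were placed; the direction of Mal2 was taken from the authors' intron numbers. Named list genes were those past the threshold, or else the 3 of smallest p; Chrnb1 was named as well because it was among the genes most like Dab1. The alternatives were other pseudocounts, filters, rescaling, a replicate block, leaving out each replicate, stricter peak calls and other windows.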

Additional observations from a re-analysis of the deposited data

Results flagged for a closer look

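Of 24 groups of 4 values of the 6 genes, 1 held a value far from the other 3. Mal2 in WT ducts was at 492.79 TPM in unit 2, against 429.7 to 437.8 TPM in the other 3 WT units, and the gap took up 0.871 of the range of the group, above Dixon's 95% critical value for 4 samples. Chance flags about 1 in 20 groups. This unit is the highest WT unit in Ache, Dab1, Prom1 and Adh1 too, and in Aqp2, at 27628 TPM against 11231 to 15454 TPM in the other WT units.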

How the results depend on the processing

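The log2 folds of the 6 genes between dDAVP and saline ranged over the alternatives from 0.84 to 1.00 for Adh1, the smallest, and from 1.70 to 2.38 for Dab1, the largest. Their sign follows from the choice of the genes and is no sign of stability. None of the 6 was called between MT and WT. The number of genes called between dDAVP and saline, 35, was 8 with a replicate block by number and between 7 (without dDAVP library 3) and 47 (without saline library 4) when 1 library was left out; it was 16, 23 and 19 without dDAVP libraries 1, 2 and 4 and 18, 17 and 38 without saline libraries 1, 2 and 3. Samples of the same number did not deviate together in every pair, and the block left the MT count at 0. Between MT and WT, 0 genes were called on unit means, 1 with the 24 libraries and unit as a random block, and 0 to 5 without 1 unit (5 without MT unit 4). At the authors' adjusted p of 0.01, 2 peaks near the 6 genes were higher, both at Ache, and 6 lower, and 168 genes had a higher peak within 50 kb. Within 10 kb, 6 peaks were higher and 8 lower, Ache and Ddit4l had no gained peak, and 237 genes had one; within 100 kb 1010 genes had one. Counting a called peak as higher wherever its fold was above the median of its signal bin, whatever its sign, gave 2066 genes. Above the floor in both groups, 9 gained peaks were left and Prom1 had none. Between MT and WT the log2 fold changed sign when 1 unit was left out for Dab1 (-0.23 to 0.18), Prom1 (-0.03 to 0.10), Adh1 (-0.03 to 0.20), Slc12a9 (-0.13 to 0.02) and Adh6a (-0.35 to 0.04), and for Prom1 after median of ratios rescaling (-0.01); between dDAVP and saline it did so for Trip6 (-0.39 to 0.14). The cause was not tested. Aqp3 lost its call in 6 of 8 fits without 1 library. Precision is limited by 4 samples in a group and by group means alone for ATAC-seq.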

Other observations

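The levels of the 6 genes in the β-catenin table, whose labels gave a dDAVP treatment, all lay below those of dDAVP ducts. The tables were normalised separately, so levels are set side by side without a test. For each of the 6 genes, all 24 MT and WT libraries lay below the lowest dDAVP library. The genes were chosen for being high in these dDAVP libraries, so this follows in part from the choice. The share over all genes was not counted, and nothing is read from it about the treatment. Within the range of the 4 saline libraries lay 23 of 24 libraries for Ddit4l, 19 for Mal2, 17 each for Ache and Dab1, 12 for Adh1 and 11 for Prom1. Prom1 was at 45.52 to 75.11 TPM in the 24 libraries, against 61.28 to 104.8 TPM with saline. Aqp2 was at 9501 to 30070 TPM in the 24 libraries, against 51774 to 72251 TPM with dDAVP and 18074 to 21874 TPM with saline, and 1 of the 24 lay within the saline range.

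Among themselves, the 6 genes did not follow 1 pattern over the 24 libraries. Prom1 and Adh1 had a Pearson r of 0.78, Dab1 and Adh1 0.69, Dab1 and Prom1 0.60 and Ache and Dab1 0.58. Ddit4l ran against Mal2 (r = -0.54) and Prom1 (r = -0.36). Ache and Mal2 had an r of -0.09. Over the 8 unit means the r of Mal2 with Ddit4l was -0.79 and that of Prom1 with Adh1 0.84. These are descriptions of 15 pairs over libraries that share units, without a test.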
